A study of Mus musculus with 9 samples.

Results

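Genes of fatty acid uptake, synthesis and storage were examined through the 10 table rows whose symbol was Lpl, Fabp4, Fabp5, Acsl1, Acaca, Fasn, Scd1, Scd2, Plin2 or Pparg, out of 45535 rows that carry a gene symbol. Each symbol matched 1 row, and all 10 genes had a mean normalized read count of at least 10, the minimum for testing, as did 18202 genes in all. Among lung dendritic cells, the integrin chain CD103 is carried mainly by type 1 conventional dendritic cells (cDC1). The samples were lung dendritic cells selected with magnetic beads for CD103. They came from mice labelled C57/BL6j that had received bleomycin, a drug used to injure the lung, for 7 days before collagenase digestion of the tissue. The 5 samples called before culture were not cultured, and the 4 called after culture had spent 18 h in serum-supplemented RPMI with penicillin and streptomycin. Both groups therefore carried the bleomycin treatment, and the contrast is between cultured and uncultured cells. Nothing states that the samples came from separate mice, so p-values measure the spread between these samples, which may be technical.

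Cells obtain fatty acids by taking them up or by making them. Lipoprotein lipase (Lpl) releases fatty acids from circulating triglyceride, fatty acid binding proteins (Fabp4, Fabp5) carry them in the cytosol, and Acsl1 joins them to coenzyme A. For synthesis, Acaca makes malonyl-CoA, Fasn builds palmitate from it, and the desaturases Scd1 and Scd2 introduce a double bond. Plin2 coats lipid droplets, and Pparg is a nuclear receptor for lipid ligands. In the lung, alveolar macrophages depend on Pparg and carry much Fabp4 and Fabp5, and alveolar type 2 cells make fatty acids for surfactant, so these transcripts are not particular to dendritic cells.

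Of the 10 genes, 5 rose after culture (Lpl, Fabp4, Fabp5, Acsl1, Acaca), 3 fell (Fasn, Scd1, Scd2) and 2 did not pass the test (Plin2, Pparg). This count of 8 is to be read against a background in which 68.8% of all tested genes passed, 34.2% higher and 34.6% lower after culture. Their median log2 fold change was 0.31, against 0.0065 over all tested genes. The uptake and activation genes had the larger rises, from 2.37-fold to 5.85-fold, whereas the largest fall was 2.19-fold. The test was limma on log2(normalized count + 1) with p adjusted by Benjamini-Hochberg over all tested genes and a threshold of 0.05, and a fold is the ratio of group means of normalized counts. The same 8 directions and calls were obtained under every alternative scaling, count model and left-out sample that was run.

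The samples held 14.7 to 35.3 M reads in rows with a symbol, and a single read stood for 0.758 to 1.79 normalized counts. The lowest of the 10 genes in any sample, Fabp4, still had 117 reads. RNA extraction is labelled as from total lung while the cell type is given as CD103+ dendritic cells. All 8 cDC1 markers examined, Itgae (the CD103 gene) among them, were read in every sample, and 7 were lower after culture while Batf3 was higher. Their summed normalized count was 111770 to 137940 before and 16128 to 17485 after culture, of which Wdfy4 alone made up a mean of 75717 before and 4761 after. Markers of other lung cells were read as well. The summed level of 10 endothelial markers was 26513 to 38294 before and 3351 to 4450 after culture, and that of 9 fibroblast markers was 16498 to 29672 and 2497 to 4798. In such bulk samples, fewer cells of a type and less RNA per cell cannot be told apart.

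Of the 10 genes, 5 matched an entry of the RefSeq promoter table (GRCm38.p6, the build also named in the submitters' processing notes). Promoters are shown for Fasn, Acaca and Acsl1, which changed in opposite directions, and for Plin2, which did not pass, beside them. The windows of Pparg were searched in the same way and are not printed. Each run is on the strand of the gene, from 250 bases before to 25 bases after an annotated start. Capitals mark matches on either strand to 3 motifs, the CCAAT box (CCAAT), the E-box (CACGTG) and a sterol regulatory element (TCACNCCAC). Of all 32851 promoter windows of 275 bases, 35.8% hold the first, 6.68% the second and 1.16% the third.
Fasn, chr11:120824523-120824797, minus strand: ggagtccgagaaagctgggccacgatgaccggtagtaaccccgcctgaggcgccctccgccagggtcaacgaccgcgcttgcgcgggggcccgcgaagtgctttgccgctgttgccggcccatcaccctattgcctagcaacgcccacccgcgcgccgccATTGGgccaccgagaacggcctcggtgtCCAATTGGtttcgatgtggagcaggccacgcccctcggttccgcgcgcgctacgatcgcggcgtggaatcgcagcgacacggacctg
Acaca, chr11:84195188-84195462, plus strand: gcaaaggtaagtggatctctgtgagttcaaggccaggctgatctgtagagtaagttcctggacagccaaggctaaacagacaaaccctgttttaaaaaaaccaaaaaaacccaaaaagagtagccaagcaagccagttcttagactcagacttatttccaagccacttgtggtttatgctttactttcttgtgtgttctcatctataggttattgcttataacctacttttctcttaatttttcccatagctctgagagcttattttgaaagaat
Acsl1 upstream start, chr8:46470787-46471061, plus strand: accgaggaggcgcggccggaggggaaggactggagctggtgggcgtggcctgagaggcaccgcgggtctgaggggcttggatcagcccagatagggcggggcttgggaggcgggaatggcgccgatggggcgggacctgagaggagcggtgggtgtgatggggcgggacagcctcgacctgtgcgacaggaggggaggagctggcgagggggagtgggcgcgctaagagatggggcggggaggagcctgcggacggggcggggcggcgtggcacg
Acsl1 downstream start, chr8:46490716-46490990, plus strand: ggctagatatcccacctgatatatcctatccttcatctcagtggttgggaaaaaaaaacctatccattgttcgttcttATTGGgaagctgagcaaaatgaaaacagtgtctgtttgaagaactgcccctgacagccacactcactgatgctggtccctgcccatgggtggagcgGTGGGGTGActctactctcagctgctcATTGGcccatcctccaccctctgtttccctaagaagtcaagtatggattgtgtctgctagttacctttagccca
Plin2, chr4:86670035-86670309, minus strand: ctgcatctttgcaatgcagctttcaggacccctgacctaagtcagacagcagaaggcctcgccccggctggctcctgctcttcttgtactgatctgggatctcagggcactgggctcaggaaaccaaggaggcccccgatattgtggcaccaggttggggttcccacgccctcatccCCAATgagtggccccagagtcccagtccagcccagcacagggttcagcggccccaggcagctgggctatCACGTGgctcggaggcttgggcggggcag

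The Fasn window held 3 CCAAT matches, beginning 90, 62 and 59 bases before the start, and the latter pair overlap each other. The Acaca window, at a start inside the gene, held no match to these 3 motifs. The downstream Acsl1 window held the sterol regulatory element letters 76 bases before the start with CCAAT matches 172 and 49 bases before it, while the upstream Acsl1 window had a GC content of 73.5% and none of the 3. The Plin2 window held an E-box beginning 4 bases before the start and a CCAAT box 73 bases before it. No window of the 5 genes, those of Pparg included, held a DR1 or DR4 element, the direct repeats of the nuclear receptor half-site with 1 or 4 bases between, which occur in 0.0365% and 0.0152% of all windows. A match describes the letters only.

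**Figure D1:**
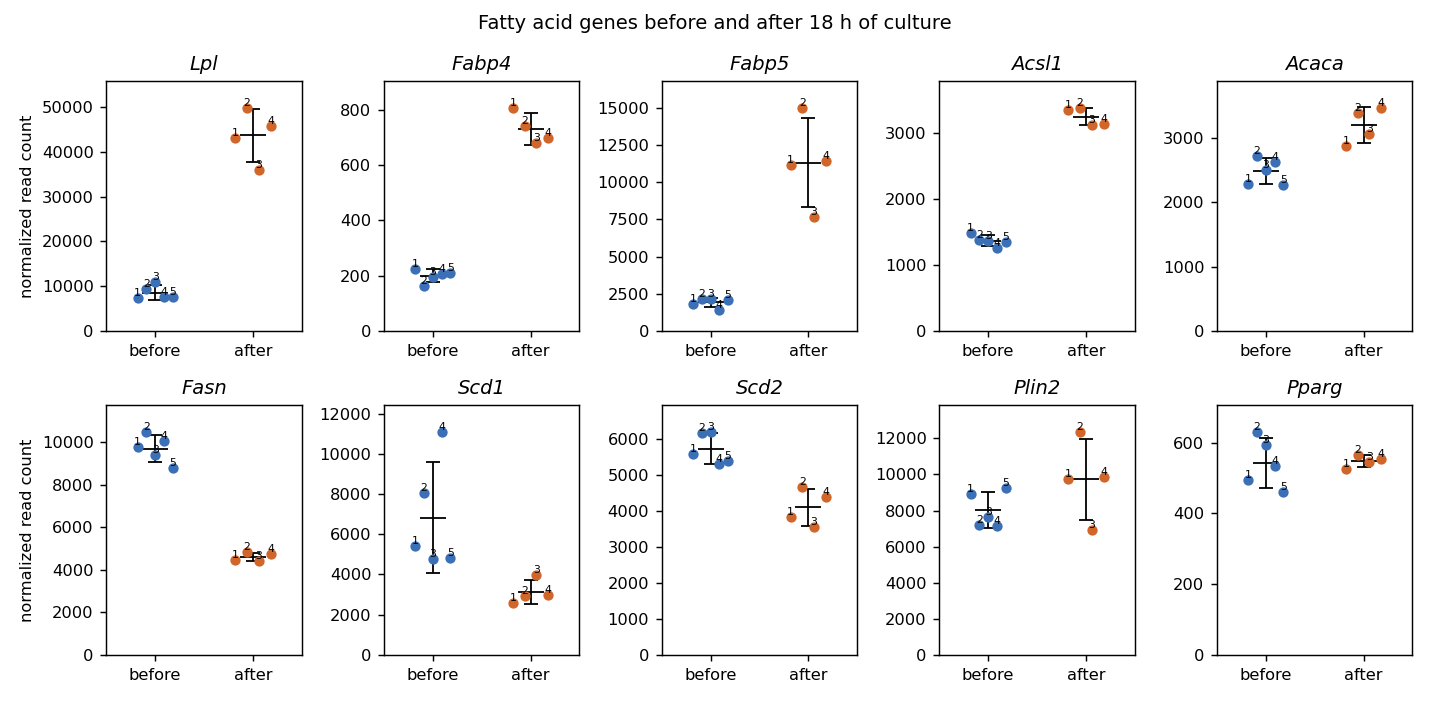
Normalized read counts of the 10 genes, 1 panel per gene with its own axis starting at 0. Points are samples numbered by replicate (5 before, 4 after 18 h of culture), and bars are the mean ± SD. The groups are apart in 8 panels and overlap for Plin2 and Pparg. Of all tested genes, 57.3% had groups that did not overlap.

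Lpl and the binding proteins rose together in all 4 cultured samples. Lpl (chr8:68880491-68907448, plus strand), the enzyme that frees fatty acids from lipoprotein triglyceride, had normalized counts of 7371, 9442, 11027, 7582 and 7570 before culture and 43113, 49774, 35908 and 45747 after it. The lowest cultured sample was thus above the highest uncultured one, and groups did not overlap, as was the case for 57.3% of all tested genes. The mean went from 8598 ± 1598 to 43636 ± 5834 (SD, n = 5 before and n = 4 after), which is 2.35 on the log2 scale (adjusted p = 3.23e-09 by limma, SE 0.131). Only 465 of the 18202 tested genes, Lpl included, had a rise at least this large.

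Fabp5 (chr3:10012548-10016607, plus strand), the epidermal-type fatty acid carrier, was at 1845, 2143, 2192, 1431 and 2062 before culture and at 11146, 14991, 7684 and 11448 after it. Replicate 3 after culture was the lowest cultured sample and replicate 2 the highest, and the groups did not overlap. The log2 fold change was 2.52 (adjusted p = 1.78e-08 by limma, SE 0.167). Fabp4 (chr3:10204088-10208576, minus strand), the adipocyte-type carrier, was at a much lower level, 226, 165, 195, 207 and 209 before and 806, 740, 678 and 699 after culture. Its log2 fold change was 1.87 (adjusted p = 4.83e-09 by limma, SE 0.108), and its cultured samples lay close together. Of the 50-base windows of the longest Fabp5 transcript 4.42% recur elsewhere, chiefly in Gm6166, which had a mean count of 7.63 ± 3.20 after culture. For Fabp4 this share was 0%.

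Acsl1 (chr8:46471037-46536051, plus strand), which activates long-chain fatty acids to acyl-CoA, was at 1484, 1381, 1361, 1256 and 1344 before culture and at 3341, 3374, 3117 and 3138 after it. Both groups were tight and far apart. The rise was 2.37-fold, with a log2 fold change of 1.25 (adjusted p = 3e-09 by limma, SE 0.0690). Its exons overlap 1039 bases of the antisense transcript Gm45244, which had a mean count of 71.5 ± 26.8 after culture, against 3242 ± 134 for Acsl1.

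The synthesis genes did not move as a block. Fasn (chr11:120805846-120824547, minus strand), the enzyme that assembles palmitate, was at 9780, 10511, 9412, 10067 and 8787 before culture and at 4455, 4841, 4405 and 4726 after it. It fell 2.11-fold without overlap, with a log2 fold change of −1.07 (adjusted p = 1.90e-08 by limma, SE 0.0717). After a correction of each sample for its trend over GC content and length the change was −0.43 (limma adjusted p = 3.04e-04), beside a GC content of 57.9% for the Fasn transcript.

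Acaca (chr11:84129672-84401651, plus strand), which supplies Fasn with malonyl-CoA, went the other way. It was at 2281, 2720, 2508, 2619 and 2264 before culture and at 2872, 3384, 3065 and 3464 after it. The groups were apart by a small margin, and the log2 fold change was 0.37 (adjusted p = 0.00139 by limma, SE 0.0825). Of its longest transcript, 52.6% of windows are shared with Gm5182. No row carries that symbol, so how the authors' counting divided these reads is uncertain.

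Scd1 and Scd2 encode desaturases that turn saturated into monounsaturated fatty acids, and both genes lie on chromosome 19 (chr19:44394455-44407879, minus strand, and chr19:44293674-44306864, plus strand, GRCm38). Scd1 was at 5404, 8063, 4747, 11104 and 4810 before culture and at 2575, 2927, 3962 and 2984 after it. Replicates 4 and 2 before culture and replicate 3 after culture stood above the other samples of their groups, and the groups still did not overlap. The log2 fold change was −1.07 (adjusted p = 8.15e-04 by limma, SE 0.223), and it was −0.87 without replicate 4 before culture. Scd2 was more even, at 5597, 6182, 6220, 5319 and 5411 before and 3826, 4674, 3555 and 4405 after culture. It fell 1.40-fold, with a log2 fold change of −0.49 (adjusted p = 3.19e-04 by limma, SE 0.0905). Windows shared with other genes made up 4.66% of the Scd1 and 4.01% of the Scd2 transcript.

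The droplet and receptor genes did not pass. Plin2 (chr4:86648386-86670060, minus strand), the droplet coat protein, was at 8899, 7180, 7655, 7125 and 9224 before culture and at 9730, 12375, 6910 and 9866 after it. Replicate 3 after culture lay below every uncultured sample, while the other 3 cultured samples lay above all of them. The log2 fold change was 0.26 (95% interval −0.05 to 0.56, limma adjusted p = 0.123), and it was 0.41 without replicate 3 after culture (limma adjusted p = 0.00512). It also passed after the GC and length correction (0.38, limma adjusted p = 0.0176). Gm12551, which shares 4.89% of Plin2 windows, went from 187 ± 24.0 to 4.76 ± 5.20, a fall that Plin2 did not share.

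Pparg (chr6:115360951-115490399, plus strand), the lipid-sensing nuclear receptor, was at 493, 631, 593, 533 and 460 before culture and at 525, 566, 544 and 553 after it. All cultured samples lay inside the uncultured range. The log2 fold change was 0.02, with a 95% interval from −0.20 to 0.24 (limma adjusted p = 0.864). The interval bounds the change that these samples allow and does not show that there was none.

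**Figure D2:**
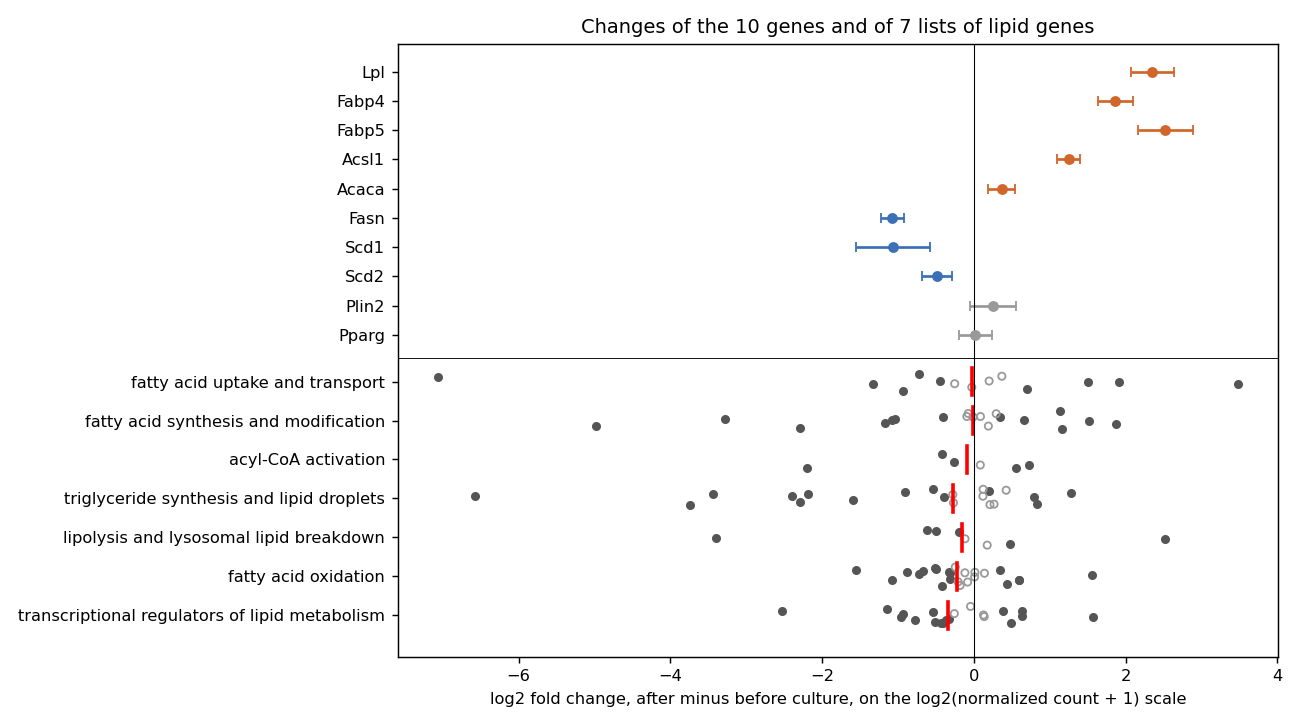
Log2 fold change from before to after culture on the log2(normalized count + 1) scale. Upper part, each of the 10 genes with its 95% interval (orange, higher; blue, lower; grey, not past the threshold). Lower part, tested genes of 7 lists of lipid genes (filled, past the threshold; open, not) with the list median in red. Medians lie between −0.34 and −0.01 while single genes reach −7.07 and 3.48.

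Ratios of pairs of these genes within each sample were compared to see whether the members of a pair differed in response. There were 4 such ratios, tested by exact two-sided permutation over all splits into 5 and 4 samples, for which the smallest possible p is 0.0159. The log2 ratio of Acaca to Fasn was −2.10, −1.95, −1.91, −1.94 and −1.96 before culture and −0.63, −0.52, −0.52 and −0.45 after it. It rose by 1.44 (SE 0.0505, exact permutation p = 0.0159, adjusted over the 4 ratios 0.0317). The groups did not overlap. The ratio of Plin2 to Fasn rose by 1.33 (SE 0.183, exact permutation p = 0.0159, adjusted 0.0317), likewise without overlap. A ratio does not remove differences in GC content and length between its genes. After the GC and length correction, the log2 fold changes of Fasn, Acaca and Plin2 were −0.43, 0.52 and 0.38, against −1.07, 0.37 and 0.26 without it. Both ratios would thus rise less with that correction, under which they were not tested.

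The log2 ratio of Fabp4 to Fabp5 went from −3.26 ± 0.360 to −3.91 ± 0.356 (SD, n = 5 and n = 4), so Fabp5 rose more than Fabp4 (difference −0.66, SE 0.241, exact permutation p = 0.0317, adjusted 0.0423), with overlapping groups. Scd1 and Scd2 could not be shown to differ in response. Their log2 ratio changed by −0.58 (SE 0.336, exact permutation p = 0.143), and by −0.77 without replicate 3 after culture (adjusted p = 0.0357). With 1 sample fewer, the smallest possible p is 0.0286 or 0.0357. The adjusted p of the other 3 ratios then exceeded 0.05 without any 1 of replicates 1, 3, 4 or 5 before or 1, 2 or 4 after culture.

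Levels of different genes were compared per kilobase of the longest annotated transcript. Before culture, Plin2 was the highest at 4246 ± 520 normalized counts per kilobase (SD, n = 5), followed by Lpl at 2090 ± 388 without overlap. Lpl, Scd1 (1413 ± 569), Scd2 (1053 ± 78.4) and Fasn (966 ± 65.2) each overlapped their neighbour in this order. Fabp5 followed at 598 ± 96.1. Acaca, Pparg and Acsl1 lay together between 241 and 261, and Fabp4 was the lowest at 47.3 ± 5.38. Over the union of annotated exons, Plin2 still had the highest mean before culture, with a sample range that overlapped that of Scd1. Lpl was at 821 on that length, below Scd1 (1395), Scd2 (1052) and Fasn (887). Its sample range overlapped each of theirs.

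After culture, Lpl was the highest at 10604 ± 1418 per kilobase (SD, n = 4), above Plin2 at 5148 ± 1183 and Fabp5 at 3495 ± 922, which overlapped each other. Fabp5 had thus passed Scd1, Scd2 and Fasn, and Acsl1 had passed Acaca, Pparg and Fasn to reach 571 ± 23.6, where it overlapped Scd1 (644 ± 123). Fasn (458 ± 20.9), Acaca (336 ± 29.1), Pparg (257 ± 8.08) and Fabp4 (173 ± 13.4) followed, with no overlap between neighbours at this length. Over the union of exons, Lpl was at 4165 after culture and still had the highest mean, with Fabp5 next and Plin2 after it. The sample ranges of these genes all overlapped on that length. On that length Acsl1 (309) lay below Fasn (421) without overlap, so it had passed Acaca and Pparg only, and Acaca and Pparg overlapped.

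**Figure D3:**
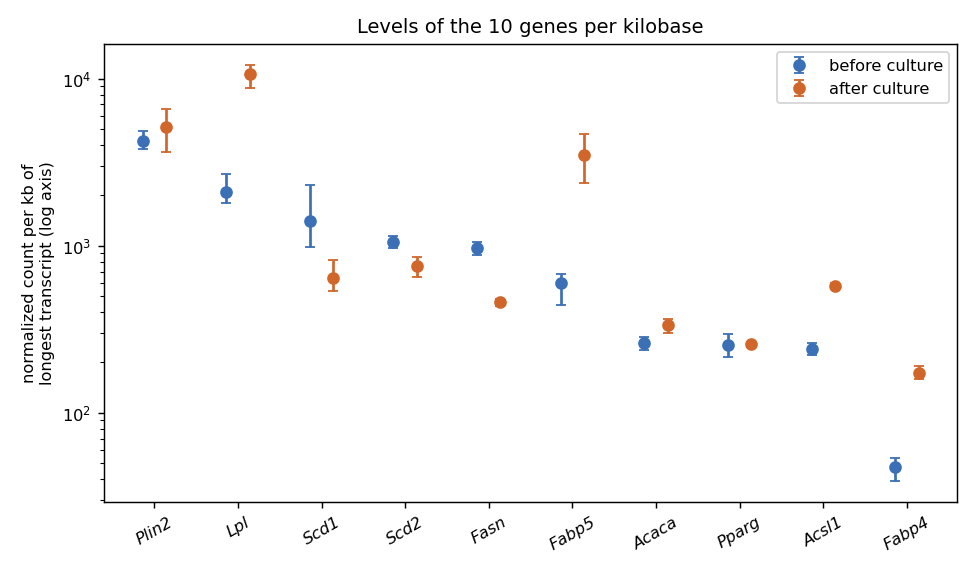
Normalized counts per kilobase of the longest transcript on a log axis, with genes in the order of their level before culture. Points are group means (n = 5 before, n = 4 after) and bars run from the lowest to the highest sample. Lpl and Fabp5 move up past genes that were above or near them, and Fabp4 stays lowest.

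Other genes of the pathway were taken from 7 lists that hold 126 genes, of which 111 were tested. Among the tested list genes 28 rose and 51 fell (71.2%, against 68.8% of all tested genes). With samples corrected for GC and length the split was 42 higher and 38 lower, beside 67.2% of all genes past the threshold (34.3% higher, 32.9% lower). List medians lay between −0.34 and −0.01, and between −0.16 and 0.16 after that correction. Dgat1, Hilpda, Cpt1a, Insig1, Srebf1, Srebf2 and Nr1h2 are named because of their function, after their values were seen.

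Among 13 tested genes of uptake and transport, 4 were higher and 5 lower, with a median of −0.03. Cd36, a scavenger receptor that binds long-chain fatty acids, was at 6854, 8628, 9302, 9943 and 6711 before and 22027, 27748, 18212 and 25695 after culture. It rose 2.83-fold (adjusted p = 6.59e-07 by limma), and by 0.90 on the log2 scale after the GC and length correction. The transport protein Slc27a3 rose 3.78-fold, and Fabp7, another carrier of the binding protein family, rose from 8.31 ± 5.42 to 87.4 ± 16.2. Gpihbp1, which anchors lipoprotein lipase on capillary endothelium, fell from 603 ± 106 to 4.35 ± 4.21 (log2 fold change −7.07, limma adjusted p = 9.39e-10). All 10 endothelial markers, of which Gpihbp1 is 1, fell with it, and their part in its fall was not tested. Mfsd2a, a lysolipid transporter, and Vldlr, a lipoprotein receptor, were also lower (−1.32 and −0.94), while Lrp1, Lmf1, Angptl4 and Fabp3 did not pass. Lrp1, a lipoprotein receptor of the same family, was at 0.20, and at 0.89 after the GC and length correction, when it passed (limma adjusted p = 1.38e-04).

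Among 19 tested genes of synthesis and modification, 6 were higher and 7 lower. Their median was −0.01, and 0.16 after the GC and length correction. The minor desaturase genes Scd4 (416 ± 34.2 before, 12.5 ± 3.34 after) and Scd3 (30.6 ± 8.76 before, 3.03 ± 3.51 after) fell in the same direction as Scd1 and Scd2. Acacb, the mitochondrial counterpart of Acaca, fell 4.88-fold, so the pair of carboxylase genes moved apart. Me1, a source of NADPH for synthesis, rose from 101 ± 28.1 to 361 ± 51.2, with 26.5% of its windows shared with other genes. Acss2, which makes acetyl-CoA from acetate, rose 2.84-fold and Elovl7 2.24-fold. Acly, the citrate lyase that feeds the pathway, did not pass (log2 fold change −0.07, SE 0.0873), and was at 0.16 after the GC and length correction (limma adjusted p = 0.0422).

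The acyl-CoA activation list had 2 of 6 tested genes higher and 3 lower. Acsl4 (log2 fold change 0.56, and 0.05 after the GC and length correction) and Acsf2 (0.73, with 37.2% of windows shared with Gm5540) were higher. Acss1, the mitochondrial acetate-activating enzyme, fell 4.61-fold, and Acsl5 and Acsl3 fell by 0.27 and 0.42 on the log2 scale. Acsl3 was at −0.73 after the GC and length correction, and did not pass with quantile scaling. Acsl1 had the largest rise of the long-chain synthetase genes tested.

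Triglyceride synthesis and lipid droplet genes had 10 of 21 tested members lower and 4 higher. Their median was −0.28, and 0.04 after the GC and length correction. G0s2, an inhibitor of adipose triglyceride lipase, was at 570, 901, 1079, 557 and 1210 before and 10.6, 6.82, 4.55 and 9.88 after culture. No other gene of this list fell as far (log2 fold change −6.58, SE 0.276, limma adjusted p = 2.19e-10). Dgat2 and Dgat1, the enzymes of the last step to triglyceride, fell 10.9-fold and 4.55-fold. Hilpda, another lipase inhibitor of droplets, fell 4.74-fold and the droplet protein Cidec 12.1-fold. Soat1, which esterifies cholesterol, rose 2.46-fold, and Lpin2 and Plin3 rose 1.78-fold and 1.73-fold. Plin4 (0.43) and Plin5 (0.27) did not pass, but did after the GC and length correction, as Plin2 did (0.89 and 0.75, limma adjusted p = 0.00506 and 0.0279).

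In the breakdown list, 2 of 8 tested genes were higher and 4 lower. Lipa, the lysosomal acid lipase, was at 4876, 5982, 5676, 5030 and 5107 before and 28483, 33758, 25195 and 35799 after culture. It rose 5.78-fold (log2 fold change 2.52, SE 0.107, limma adjusted p = 2.33e-10), close in size to Fabp5. The cytosolic lipase gene Pnpla2 did not pass (−0.12, SE 0.0941). It passed in the other direction after the GC and length correction (0.29, limma adjusted p = 0.00119), and as lower without replicate 4 before culture. The carboxylesterase gene Ces1d fell 10.7-fold. Abhd6 fell by 0.50 and Ddhd2 rose by 0.47 on the log2 scale. Mgll, the monoglyceride lipase, fell by 0.62, but was at −0.22 after that correction and did not pass (limma adjusted p = 0.314).

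Fatty acid oxidation genes had 11 of 24 members lower and 5 higher, with a median of −0.23 that was negative under all 23 alternatives. Acadm, the medium-chain dehydrogenase, rose 2.93-fold, the only rise above 2-fold in the list. Decr1 and Cpt2 rose by 0.60 and 0.59 on the log2 scale, Decr1 by 0.31 after the GC and length correction. Etfb, a subunit of the electron transfer flavoprotein, had the largest fall (2.92-fold), with 67.3% of its windows shared with Gm45233. Slc25a20, the carnitine carrier of mitochondria, fell 2.12-fold and the peroxisomal oxidase Acox3 1.84-fold. Cpt1a, the gate of mitochondrial import, fell by 0.42 on the log2 scale, and by 0.23 after the GC and length correction, when it did not pass (limma adjusted p = 0.0657).

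Among 20 tested regulators, 5 were higher and 11 lower, with a median of −0.34, which was 0.14 after the GC and length correction. Scap and Insig1, which control the transport and retention of sterol regulatory element binding proteins, fell by 1.14 and 0.93 on the log2 scale, and Cebpb fell 5.61-fold. The retinoid X receptor gene Rxrb fell by 0.96. After the GC and length correction the changes were −0.55 for Scap, −1.61 for Cebpb and −0.33 for Rxrb, all still past the threshold. Srebf1 and Srebf2, which encode those factors, fell by 0.43 and 0.36 on the log2 scale, but were at 0.12 and 0.19 after the GC and length correction, the latter past the threshold (limma adjusted p = 0.0141). Nr1h3, a liver X receptor gene, rose 1.59-fold (log2 fold change 0.63, and 1.01 after that correction) and Ppargc1a rose from 14.2 ± 2.24 to 45.0 ± 12.0. The other liver X receptor gene, Nr1h2, fell by 0.51 on the log2 scale. It was at 0.06 after the correction and did not pass (limma adjusted p = 0.48). Mbtps2, a protease that releases sterol regulatory element binding proteins, rose by 0.64, but was at 0.17 after the correction and did not pass (limma adjusted p = 0.134). Ppard did not pass (0.13, SE 0.102), but was at 0.34 after the correction (limma adjusted p = 0.00225).

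Levels of other cell types' markers varied between samples of the same group, and some of the 10 genes varied with them. The sum of 8 alveolar type 2 markers was 25660, 28910, 23779, 43824 and 23086 before and 6833, 7224, 10474 and 7751 after culture. Replicate 4 before culture and replicate 3 after culture were highest in their groups, as they were for Scd1. Relative to the group mean, replicate 4 before culture was at 1.63 for Scd1 and 1.51 for these markers, and replicate 3 after culture was at 1.27 and 1.30. Scd2 was at 0.926 and 0.864 in those samples. The markers in the sum did not vary alike. Sftpc, Sftpb, Sftpa1, Sftpd and Slc34a2 were highest of their groups in both samples, Sftpc at 16826 and 3606. Napsa (7064 and 1528) and Abca3 (4656 and 3075) were lowest in both, and Etv5 was lowest in replicate 3 after culture. After culture, Napsa and Abca3 had means of 1790 and 3329, against 8071 for the sum. All 8 markers were lower after culture, and their part in the fall of Scd1 was not tested. As a share of the marker sum, Scd1 was 19.96 to 27.9% before and 37.7 to 40.5% after culture.

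The sum of 10 markers of monocytes and interstitial macrophages was 50829, 55403, 59284, 32981 and 48888 before and 29657, 43023, 19784 and 31925 after culture. After culture, replicate 2 was the highest and replicate 3 the lowest for this sum, for Fabp5, for Lpl and for Plin2. The same held for Cd36, Lrp1 and Acly, so this order was not particular to them. Relative to the group mean, replicate 3 after culture was at 0.636 for the markers, 0.679 for Fabp5, 0.823 for Lpl and 0.711 for Plin2. Replicate 4 before culture was lowest for the markers, Fabp5 and Plin2 (0.667, 0.740 and 0.889), with Lpl at 0.882 and not lowest there. Replicate 3 before culture was highest for the markers, Fabp5 and Lpl (1.20, 1.13 and 1.28), but Plin2 was at 0.955 there. Of these 10 markers, 5 were lower and 1 higher after culture, and none was at 0 in every sample. Fabp5 amounted to 3.63 to 4.34% of the marker sum before and 34.8 to 38.8% after culture. Plin2 amounted to 12.9 to 21.6% before and 28.8 to 34.9% after culture. The part of these cells in the changes of Fabp5, Lpl and Plin2 was not tested.

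Of 10 alveolar macrophage markers, 9 were tested, 7 were lower and 1 was higher after culture, and their sum was 27421 to 39531 before and 20331 to 28011 after culture. Fabp4 amounted to 0.416 to 0.764% of this sum before and 2.64 to 3.44% after. Of 6 adipocyte markers, 4 were too low to test, and their sum was 46.9 to 70.5 before and 9.72 to 18.2 after culture. Without replicate 4 before and replicate 3 after culture together (69.3% of all genes called), the 8 calls and their directions were the same and Plin2 also passed (log2 fold change 0.37, limma adjusted p = 0.00622). These comparisons with marker sums were chosen after the values were seen.

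**Figure D4:**
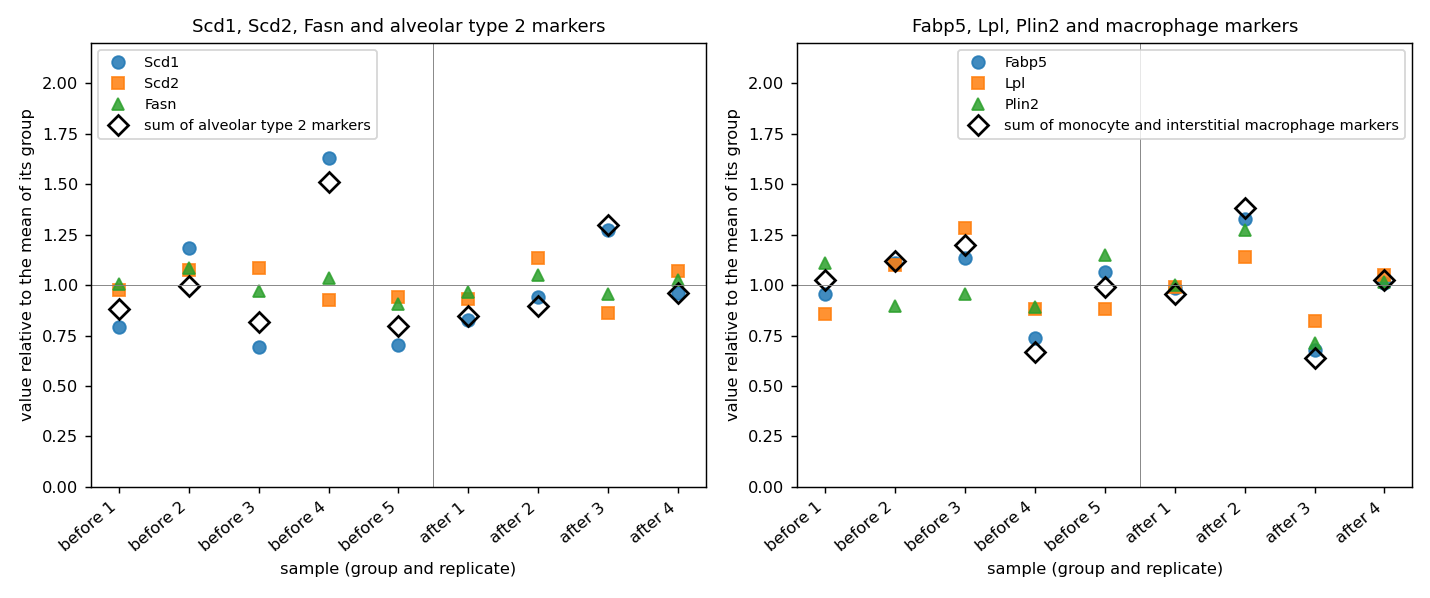
Each sample's value divided by the mean of its group, for Scd1, Scd2 and Fasn with the sum of 8 alveolar type 2 markers (left) and for Fabp5, Lpl and Plin2 with the sum of 10 monocyte and interstitial macrophage markers (right). Scd1 lies near the marker sum in replicate 4 before culture (1.63 and 1.51) and replicate 3 after culture (1.27 and 1.30). The alveolar type 2 markers Napsa and Abca3 were lowest of their groups in these samples. Fabp5 lies near its marker sum in replicate 3 after culture (0.679 and 0.636).

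The genes whose profile over the 9 samples was closest to each of the 10 were found by the root-mean-square difference of centred log2 values. Nrp2 was closest to Fabp5 (0.125), Hsf2 to Fabp4 (0.123), Gm10521 to Lpl (0.123) and Ggta1 to Acsl1 (0.0510). Cnp was closest to Fasn (0.0527), Ext2 to Scd2 (0.0414), Sec62 to Acaca (0.0337), Sh3pxd2b to Plin2 (0.104) and Pcyox1 to Pparg (0.0719). For Scd1 the closest was Mamdc2 at 0.170, the largest of these distances, so no tested gene followed the sample pattern of Scd1 as closely as was found for the others.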

How the data were processed

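RNA of 9 samples was sequenced. The deposited signal values are gene read counts that the authors had normalized per sample, and the submitters' processing notes name DESeq2 and GRCm38. The aligner, counting tool, annotation and strandedness are not given in the sources used here. All values (100%, to a relative tolerance of 1e-06) were multiples of 1 value per sample, which gave back whole reads. The 3782 rows without a symbol, with 3.87 to 10.9% of a sample's reads, were kept out of tests and depths. The 16 within-group pairs of samples differed by more than counting error (7.02 to 66.9 chi-square units per degree of freedom). Errors are the spread between samples.

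The test was limma 3.58.1 in R 4.3.3, with group as the only term and a mean-variance trend. It was run on log2(value + 1), where the added 1 understates the fold of low genes. The edgeR 4.0.16 and DESeq2 1.42.0 models on recovered reads called 12562 and 12663 of the tested genes, against 12524 by limma. The other alternatives were pseudocounts of 0.5 and 8, minimum means of 0 and 50, upper quartile, TMM and quantile scaling, sample weights, replicate blocks, each sample left out, and a correction of each sample for its smooth trend over GC content and length (GENCODE M21, 96.5% of tested genes). Shared windows, lengths and overlaps came from that annotation, which may not be the authors'. The script was tested on simulated counts. The genes and lists were chosen with earlier results of these data known. Named genes are the 10, up to 3 list genes with the largest changes in each direction, list genes that did not pass, and for each of the 10 the nearest 2 profiles. Of those that did not pass and of the profiles not all are printed. Ratios and figures used Python 3.11.15, SciPy 1.17.1 and matplotlib 3.10.9.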

Additional observations from a re-analysis of the deposited data

Results flagged for a closer look

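In 42 sets of 4 or 5 samples (the 10 genes, the 4 ratios and 7 sums of markers, each in both groups), 3 held a sample far from the others by Dixon's criterion, where chance gives about 5% of sets. The log2 ratio of Scd1 to Scd2 after culture was 0.16 in replicate 3, against −0.67 to −0.56 in the other cultured samples. The summed alveolar type 2 markers before culture were 43824 in replicate 4, against 23086 to 28910 in the other uncultured samples. The log2 ratio of Acaca to Fasn before culture was −2.10 in replicate 1, against −1.96 to −1.91 in the others.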

How the results depend on the processing

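The count of changed genes among the 10 was 8 or 9 in every alternative, the ninth being Plin2, and over all tested genes it ran from 11766 to 12691 when 1 sample was left out and from 9925 to 14150 otherwise. Plin2 passed with quantile scaling (0.29, limma adjusted p = 0.0367), sample weights (0.27, 0.0491), the GC and length correction (0.38), without replicate 3 after culture (0.41) and without that and replicate 4 before culture (0.37). Pparg, close to 0, changed sign with sample weights (−0.00095), with a replicate block by title number (−0.0355) and when a sample was left out (−0.0355 to 0.0783). Leaving out 1 sample gave ranges of 75 to 81 for changed pathway genes, −0.80 to −0.52 for the change in the ratio of Fabp4 to Fabp5, −0.77 to −0.36 for Scd1 to Scd2, 1.41 to 1.48 for Acaca to Fasn and 1.23 to 1.46 for Plin2 to Fasn. Leaving out replicate 4 before and replicate 3 after culture together gave −0.68 for Fabp4 to Fabp5, 1.45 for Acaca to Fasn and 1.41 for Plin2 to Fasn, each at an adjusted p of 0.0571 with fewer samples. The ratios were run with other pseudocounts and left-out samples only, not with the GC and length correction. Over the union of exons, levels after culture were 4165 for Lpl, 421 for Fasn, 187 for Acaca, 2768 for Plin2, 185 for Pparg and 309 for Acsl1. Of the 7 list medians, 6 changed sign under at least 1 of 23 alternatives. Sample numbers in titles and in library names differ, and neither is stated to pair the samples. Deviations of samples with the same number correlated at −0.213 to 0.0807 by title and at 0.0447 to 0.349 by library name. Whether the samples are paired by library name is thus not settled, and the main test was unpaired. A replicate block by title, in which replicate 5 before culture has no partner, gave 11646 changed genes and 8 of the 10, and a block by library name, in which replicate 2 before culture has none, gave 12836 and 8. In the library-name pairing, 3 of 4 uncultured and 4 of 4 cultured samples correlated best with their own number.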
